A study of Mus musculus with 4 samples.

Results

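Phosphodiesterase 6 (PDE6) is the enzyme that hydrolyses cGMP when photoreceptors absorb light, and the 6 genes described here encode its subunits and its lipid-binding partner. Pde6a and Pde6b encode the catalytic α and β subunits of the rod enzyme, and Pde6g its inhibitory γ subunit. Pde6c encodes the catalytic α′ subunit of the cone enzyme, and Pde6h the cone γ subunit. Pde6d encodes the prenyl-binding δ protein that rods and cones share. The genes were chosen by name, and each had 1 probe set with a single gene symbol, so all 6 of the 6 listed genes were found among the 19421 genes tested. This made 3 rod genes, 2 cone genes and 1 shared gene.

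In darkness, cGMP holds the cation channels of the outer segment open. Activated transducin takes the γ subunits off the catalytic core of PDE6, cGMP falls and the channels close. Rods and cones run this step with separate genes for the catalytic and inhibitory subunits. The catalytic subunits carry prenyl groups at their C-terminal ends, and the δ protein binds such groups and carries prenylated proteins towards the outer segment. Nrl is the transcription factor that directs photoreceptor precursors to the rod fate and keeps rod genes active, among them genes of rod PDE6.

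Expression was measured on 4 microarrays of whole retina from Mus musculus, 2 arrays for each genotype. Knockout mice were Nrlflox/flox; CAG-CreERTM and controls Nrlflox/+; CAG-CreERTM, so controls also carried a floxed allele and Cre, and kept an intact Nrl allele. All mice received 4-hydroxytamoxifen intraperitoneally on each day from postnatal day 42 to 44, and retinas were taken on postnatal day 63, 19 days after the last injection. Each array held total RNA of 4 retinas from 2 animals. CAG is a promoter active in most cell types, so the Cre was not limited to rods by its promoter. Strain and sex are not given in the labels. The comparison addresses how targeting Nrl in a mature retina changes expression, here of the rod, cone and shared PDE6 genes.

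The deposited values are log2 levels from 1.34 to 12.75, and array medians lay between 5.99 and 6.04. Nrl had levels of 7.57 and 7.05 in knockout against 8.21 and 8.13 in control, a log2 change of −0.86 (SE 0.18, limma adjusted p = 0.289). How complete the loss of Nrl was in these pools was not tested. Markers of rods (9 genes) and cones (8 genes) were measured on the same arrays. The replicate number coincided with the level of Xist, which coats the inactive X chromosome. It stood at 4.07 (knockout) and 4.09 (control) for replicate 1, and at 10.66 and 10.47 for replicate 2. Differences within replicate 1 and within replicate 2 are therefore given for each PDE6 gene and for the main differences between them. Limma called 39 of the 19421 genes at an adjusted p under 0.05.

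The 250 bases before the annotated start are shown for Pde6b and Pde6h, because the factor targeted in these mice binds DNA. Pde6b is the rod gene with the largest difference, and Pde6h is a cone gene. RefSeq promoters of the GRCm38.p6 assembly matched 3 of the 6 genes, Pde6b, Pde6h and Pde6d. Pde6b lies on the plus strand (chr5:108388123-108388372), and so does Pde6h (chr6:136954273-136954522). The sequences run 5′ to 3′ and end at the base before the start. Capitals mark matches, on either strand, to TGCTGA (a half-site of the element that Maf-family factors such as Nrl bind), TGACTCA (the core of an AP-1-type site), TAATCC (a site of the Crx type) and TAATC (the homeodomain core, which every TAATCC also holds).
Pde6b: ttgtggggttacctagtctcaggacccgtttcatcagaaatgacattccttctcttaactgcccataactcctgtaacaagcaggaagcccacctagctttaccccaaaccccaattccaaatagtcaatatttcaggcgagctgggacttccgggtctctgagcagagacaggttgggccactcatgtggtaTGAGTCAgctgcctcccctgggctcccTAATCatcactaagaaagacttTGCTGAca
Pde6h: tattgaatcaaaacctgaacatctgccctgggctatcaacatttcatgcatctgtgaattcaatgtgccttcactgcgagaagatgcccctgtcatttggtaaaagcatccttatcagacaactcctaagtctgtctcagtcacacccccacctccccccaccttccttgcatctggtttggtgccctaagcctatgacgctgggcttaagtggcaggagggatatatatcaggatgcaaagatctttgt

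The Pde6b window held TGACTCA on the minus strand, 57 to 51 bases before the start, TAATC on the plus strand, 30 to 26 bases before it, and TGCTGA on the plus strand, 8 to 3 bases before it. The windows of Pde6h and Pde6d held none of these letters. Of 32851 RefSeq promoter windows of the same length, 16.1% held TGCTGA, 4.46% TGACTCA, 6.25% TAATCC and 19.8% TAATC. A match describes letters in the window and is not a measurement of binding.

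Every rod PDE6 gene was lower in both knockout pools than in both control pools, and the cone catalytic gene Pde6c was higher in both. The cone inhibitory gene Pde6h overlapped between the groups, and on group means the shared Pde6d was lower by less than any rod gene. That order did not hold within each replicate. Pde6a minus Pde6d changed by −0.07, with 0.03 within replicate 1 and −0.16 within replicate 2. Pde6b stood at 56.5% of the control signal, Pde6g at 70.5% and Pde6a at 86.0%, against a 1.82-fold higher signal for Pde6c. None of the 6 genes passed the adjusted p of 0.05 in the limma fit over all genes, where 0.201% of genes were called, 0.139% higher and 0.0618% lower. The unadjusted p was under 0.05 for 3 of the 6, against 7.07% of all genes: Pde6b and Pde6g were lower, as 3.37% of all genes were, and Pde6c was higher, as 3.71% were. The groups did not overlap for 5 of the 6, against 35.4% of all genes, with the knockout pools below the controls for 4 of them (18.4% of all genes) and above for Pde6c (17.0%). In whole retina, fewer cells of a type and less RNA per cell cannot be told apart.

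**Figure D1:**
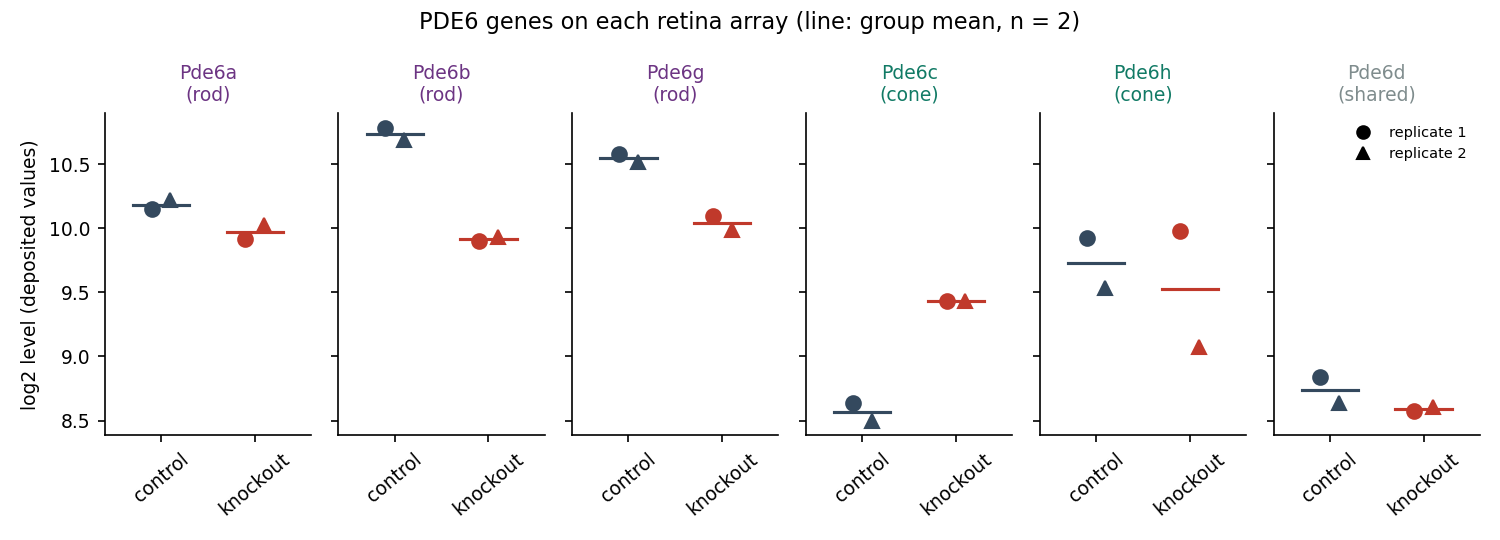
Log2 level (vertical axis) of each PDE6 gene on the 4 arrays, with circles for replicate 1, triangles for replicate 2 and lines for the group means (n = 2). Levels of different genes come from different probes, so only control against knockout within a panel can be compared: Pde6b lies at 10.78 and 10.69 in control and 9.90 and 9.93 in knockout, and Pde6c at 8.64 and 8.50 against 9.43 and 9.43.

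Pde6b, the β catalytic subunit of rod PDE6, had log2 levels of 9.90 and 9.93 in knockout against 10.78 and 10.69 in control. The highest knockout pool lay 0.76 below the lowest control pool, while the gap between pools of a genotype was no wider than 0.09. Its means were 9.91 ± 0.02 (SD, n = 2) and 10.74 ± 0.07 (SD, n = 2), a log2 change of −0.82 (SE 0.10, 95% interval −1.06 to −0.58, limma adjusted p = 0.0644). The interval corresponds to 47.8% to 66.8% of the control signal. The difference was −0.89 within replicate 1 and −0.76 within replicate 2. Pde6b ranked 44 of 19421 genes by p and 26 from the lowest by log2 change.

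Pde6a, the α subunit that pairs with the β subunit in the rod holoenzyme, differed less. Its levels were 9.91 and 10.02 in knockout against 10.15 and 10.22 in control. The groups did not overlap, but the gap between them was about as wide as the gap between the knockout pools. The log2 change was −0.22 (SE 0.10, 95% interval −0.47 to 0.03, limma adjusted p = 0.752), with −0.24 within replicate 1 and −0.20 within replicate 2. Its interval reached 0, and its unadjusted p was 0.0764.

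Pde6g, the γ subunit that holds the rod enzyme inactive in darkness, lay between these. Levels of 10.10 and 9.99 in the knockout pools stood against 10.58 and 10.52 in the control pools, and both knockout pools were below both controls. The log2 change was −0.50 (SE 0.10, 95% interval −0.75 to −0.26), which is 59.4% to 83.7% of the control signal. Adjusted over all genes, limma's p was 0.275, and the gene ranked 167 by p. The differences within replicates 1 and 2 were −0.48 and −0.53.

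Pde6c, the catalytic subunit of the cone enzyme, had the opposite sign. Its levels were 9.43 and 9.43 in knockout against 8.64 and 8.50 in control, so both knockout pools lay above both controls. The means were 9.43 ± 0.00089 (SD, n = 2) and 8.57 ± 0.10 (SD, n = 2), a log2 change of 0.87 (SE 0.10, 95% interval 0.61 to 1.12, limma adjusted p = 0.0616). The knockout pools differed by 0.0013, and 99.1% of genes had a wider gap there, and limma's SE for this gene also draws on the variance of all other genes. The difference was 0.79 within replicate 1 and 0.94 within replicate 2. Pde6c ranked 43 of 19421 by p and 60 from the highest by log2 change.

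Pde6h, the inhibitory subunit of the cone enzyme, showed no separation between the genotypes. Its levels were 9.98 and 9.07 in knockout against 9.92 and 9.53 in control, with both controls inside the range of the knockout pools. The log2 change was −0.20 (SE 0.30, 95% interval −0.92 to 0.52, limma adjusted p = 0.955), an interval of 52.7% to 143% of the control signal. Replicate 1 exceeded replicate 2 by 0.91 in knockout and by 0.39 in control. Only 0.206% of genes had a wider gap between the knockout pools and 7.51% between the control pools. The difference between genotypes was 0.05 within replicate 1 and −0.46 within replicate 2, and the log2 change was 0.25 without knockout replicate 2 and −0.66 without knockout replicate 1. The replicate number also carried the pattern of Xist, Kdm5d and Uty given above. The part of sex in the spread of Pde6h was not tested.

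Pde6d, the prenyl-binding δ protein, had levels of 8.58 and 8.60 in knockout against 8.84 and 8.64 in control. The lowest control pool stood 0.03 above the highest knockout pool, which is less than the gap of 0.21 between the controls. The log2 change was −0.15 (SE 0.11, 95% interval −0.42 to 0.12, limma adjusted p = 0.865), with −0.27 within replicate 1 and −0.03 within replicate 2. It was −0.05 without control replicate 1 and −0.25 without control replicate 2.

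**Figure D2:**
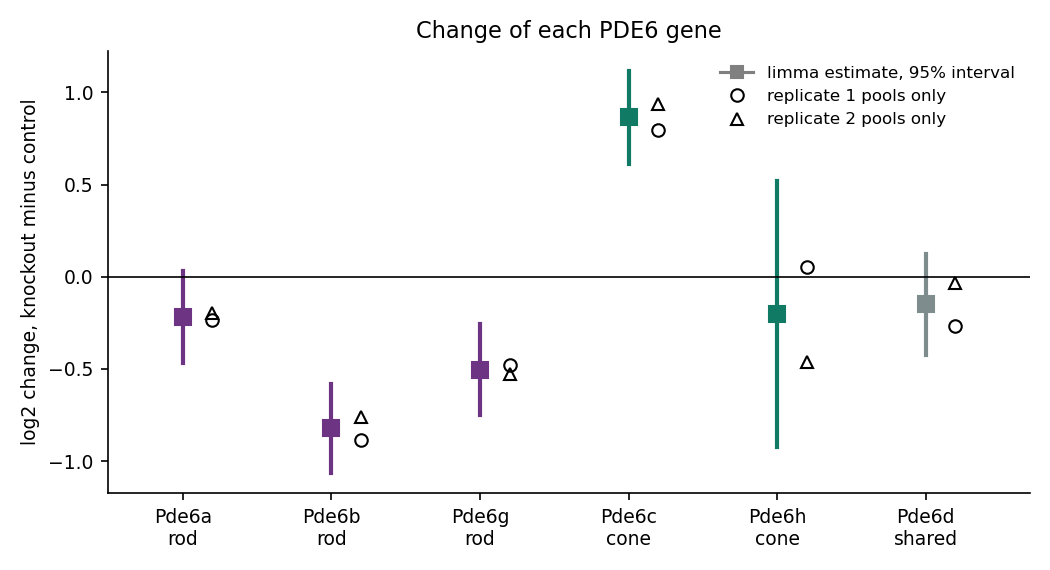
Log2 change, knockout minus control, of each PDE6 gene (squares, limma estimate; bars, 95% interval of the moderated fit), with the difference within replicate 1 (circles) and within replicate 2 (triangles). The intervals of Pde6b, Pde6g and Pde6c lie wholly to one side of 0, those of Pde6a, Pde6h and Pde6d include it, and the circle and triangle of Pde6h lie on opposite sides of 0.

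The catalytic genes of cones and rods had changes of opposite sign. On each array the log2 level of Pde6c minus that of Pde6b was −0.46 and −0.50 in knockout against −2.15 and −2.19 in control. The change in this difference was 1.69, so the ratio of Pde6c to Pde6b signal was 3.22-fold higher in the knockout, with 1.68 within replicate 1 and 1.70 within replicate 2. The groups were separated by far more than the spread of 0.02 (SD, n = 2) in knockout and 0.03 (SD, n = 2) in control. A two-sided exact permutation test gave p = 0.333, the smallest this design allows, because there are 3 ways to divide 4 arrays into equal groups. Against Pde6a in place of Pde6b the change was 1.08 (1.03 and 1.13 within replicates 1 and 2), and against Pde6g it was 1.37 (1.27 and 1.47).

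Among the inhibitory subunits the same comparison did not separate the groups. Pde6h minus Pde6g was −0.12 and −0.92 in knockout against −0.65 and −0.98 in control, a change of 0.30 (two-sided exact permutation p = 0.667). This change was 0.53 within replicate 1 and 0.07 within replicate 2, and it became −0.10 without knockout replicate 1 and 0.70 without knockout replicate 2. Within the cone enzyme, Pde6c minus Pde6h was −0.54 and 0.36 in knockout and −1.28 and −1.03 in control, a change of 1.07 (exact permutation p = 0.333). It was 0.74 within replicate 1 and 1.40 within replicate 2, and 0.62 without knockout replicate 2. Within the rod enzyme, Pde6b minus Pde6a was −0.01 and −0.09 in knockout and 0.64 and 0.47 in control, a change of −0.61 (exact permutation p = 0.333), with −0.65 within replicate 1 and −0.56 within replicate 2. The genes of the rod catalytic pair thus differed in change by more than the spread between pools, though Pde6a itself differed little between genotypes. All 15 pairs of the 6 genes were computed, 11 of them reached the smallest possible p, and after Benjamini-Hochberg adjustment over the 15 these stood at 0.455. A pair with no difference between genotypes would reach that smallest p with a probability of 0.333. The pairs also share genes, so their count is not a test.

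**Figure D3:**
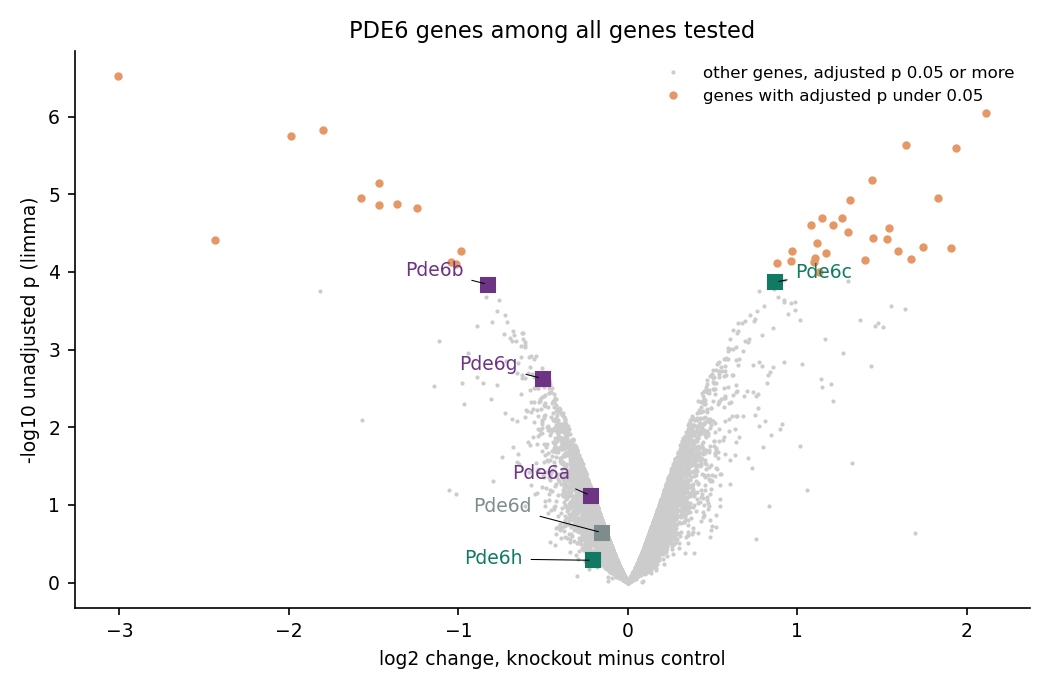
Log2 change, knockout minus control (horizontal axis), against −log10 of the unadjusted limma p (vertical axis) for the 19421 genes tested, with orange points for the 39 genes at an adjusted p under 0.05 and squares for the PDE6 genes. Pde6b and Pde6c lie just under the called genes on the left and right arms, and Pde6a, Pde6h and Pde6d lie near the base.

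Markers of rods were lower in the knockout pools as a list. Of these 9, 8 lay below 0 and 1 above, and 2 fell at an adjusted p under 0.05, against 0.0618% of all genes. The median log2 change of the 9 was −0.73, against 0.00 over all genes. Their mean level was 9.62 and 9.58 in knockout against 10.50 and 10.43 in control. Of 8 cone markers, 2 rose (Gnat2 and Gnb3), against 0.139% of all genes. Among the 8, 5 lay below 0, and the median was −0.13. The opposite signs of Pde6c and of the cone opsin genes Opn1sw, at −0.52 (adjusted p = 0.281), and Opn1mw, at −0.22 (adjusted p = 0.793), put cone genes on both sides of 0. Opn1sw and Opn1mw were chosen after their values were seen.

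Markers of other cell types were read on the same arrays. Of 10 microglial markers 9 lay above 0 and 2 rose, against 0.139% of all genes called higher. The 10 had a median of 0.53 and a mean level of 6.38 and 6.39 in knockout against 5.76 and 5.84 in control. The 8 Müller glia markers had a median of 0.01, with members on both sides of 0 (Clu at 0.89, Vim at 0.56 and Glul at −0.37, named after their values were seen) and mean levels of 8.09 and 8.01 against 7.93 and 7.91, and the 7 bipolar markers a median of −0.03 with 7.76 and 7.68 against 7.84 and 7.69. The 6 markers of retinal pigment epithelium all lay below 0, with a median of −0.12 and mean levels of 6.33 and 6.27 against 6.64 and 6.31, and none was called. The part of cell composition in the PDE6 values was not tested. The array has no true zero, so no marker can be called absent.

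The α and β subunits of transducin, which switches PDE6 on, were the part of the pathway with calls. Of 10 genes of activation and shutoff, 2 fell, 2 rose and 6 did not pass, with a median of −0.12 that was −0.03 without control replicate 1. Over all genes, 0.0618% were called lower and 0.139% higher. Gnat1, the transducin α subunit that activates rod PDE6, fell by 3.01 (SE 0.13, limma adjusted p = 0.00586), and Gnb1, the rod β subunit, fell by 1.47 (SE 0.12, adjusted p = 0.0208). Gnat2, the α subunit that activates cone PDE6, rose by 1.10 (SE 0.12, adjusted p = 0.0402), and Gnb3, the cone β subunit, by 1.59 (SE 0.16, adjusted p = 0.0366). Gnat1 thus stood at 12.4% of its control signal where Pde6b stood at 56.5%. The γ subunits, named after their values were seen, were not called. Gngt1 (rod) had a log2 change of 0.05 (SE 0.11, adjusted p = 0.976), with the groups overlapping. Gngt2 (cone) had −0.14 (SE 0.12, adjusted p = 0.899), with both knockout pools below both controls. Gnat1 was called again without either knockout pool, Gnb1, Gnat2 and Gnb3 in no fit that left out a pool (lowest adjusted p 0.0578, 0.145 and 0.134), and without either control pool limma called 0 of 19421 genes (1355 and 1328 at an unadjusted p under 0.05).

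No gene of the list that folds, prenylates or delivers PDE6 was called. Limma called 0 of the 15 measured of 17, against 0.201% of all genes, and the median was −0.02. Of the 15, 2 had an unadjusted p under 0.05, both lower in the knockout, against 3.37% of all genes. Aipl1, the chaperone that rod and cone PDE6 need to fold, had mean levels of 6.98 ± 0.02 (SD, n = 2) in knockout and 6.85 ± 0.06 (SD, n = 2) in control, a log2 change of 0.14 (SE 0.10, adjusted p = 0.861). The members with the smallest p were Rpgrip1, a scaffold of the connecting cilium, at −0.71 (SE 0.11, adjusted p = 0.122, and called under 2 alternative settings) and Unc119, a carrier of acylated proteins such as transducin α, at −0.35 (SE 0.10, adjusted p = 0.504). Both lay below the 5th percentile of all genes, −0.26.

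The genes that make and read cGMP had 0 calls by limma in the reported fit, where 0.201% of all genes were called. Over all genes, 7.07% had an unadjusted p under 0.05, and 3.37% had one and were lower. Among the 3 measured of 4 synthesis genes the median was −0.20 and 1 had an unadjusted p under 0.05. That was Gucy2f, a photoreceptor guanylate cyclase, at −0.43 (SE 0.10, adjusted p = 0.353), and Gucy2e, the other cyclase, had −0.20 (SE 0.11, adjusted p = 0.800). The synthesis median was −0.11 without control replicate 2. Of 6 genes of cGMP-gated channels and cGMP-dependent kinases the median was −0.20, and 2 had an unadjusted p under 0.05. These encode the subunits of the rod channel, Cngb1 at −0.76 (SE 0.10, adjusted p = 0.0886) and Cnga1 at −0.48 (SE 0.10, adjusted p = 0.271). The median of the 6 ran from −0.31 without knockout replicate 1 and −0.30 without control replicate 2 to −0.12 without knockout replicate 2 and −0.10 without control replicate 1. With a variance trend Cngb1, Cnga1 and Gucy2f were called (adjusted p = 0.00529, 0.0167 and 0.0420), and Cngb1 was called under 4 alternative settings in all. Cngb1 has 4 probe sets, and the other 3 had −0.63, −0.48 and −0.05.

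Phosphodiesterases outside the PDE6 family showed no call in limma, where 0.201% of all genes were called. With a share that low, no call among 18 genes says little about them. The 18 genes had a median log2 change of −0.03, 7 lay above 0 and 11 below, and values ran from −0.39 to 0.52. The median ran from −0.04 to 0.01 without 1 pool, and from −0.08 to −0.03 under the other alternative settings. At an unadjusted p under 0.05 there were 1 higher and 2 lower of the 18, against 3.71% and 3.37% of all genes. The smallest p values were those of Pde3b, which hydrolyses cAMP and is inhibited by cGMP, at 0.52 (SE 0.15, adjusted p = 0.512), and Pde1a, which calmodulin activates, at −0.39 (SE 0.12, adjusted p = 0.554). Pde6b and Pde6g thus lay below the range of these 18 log2 changes, Pde6c above it, and Pde6a, Pde6h and Pde6d within it. The mean level of the 18 was 6.53 and 6.55 in knockout and 6.55 and 6.56 in control. Every PDE6 gene had a higher signal than this on each array, and the part of signal level in the range was not tested.

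**Figure D4:**
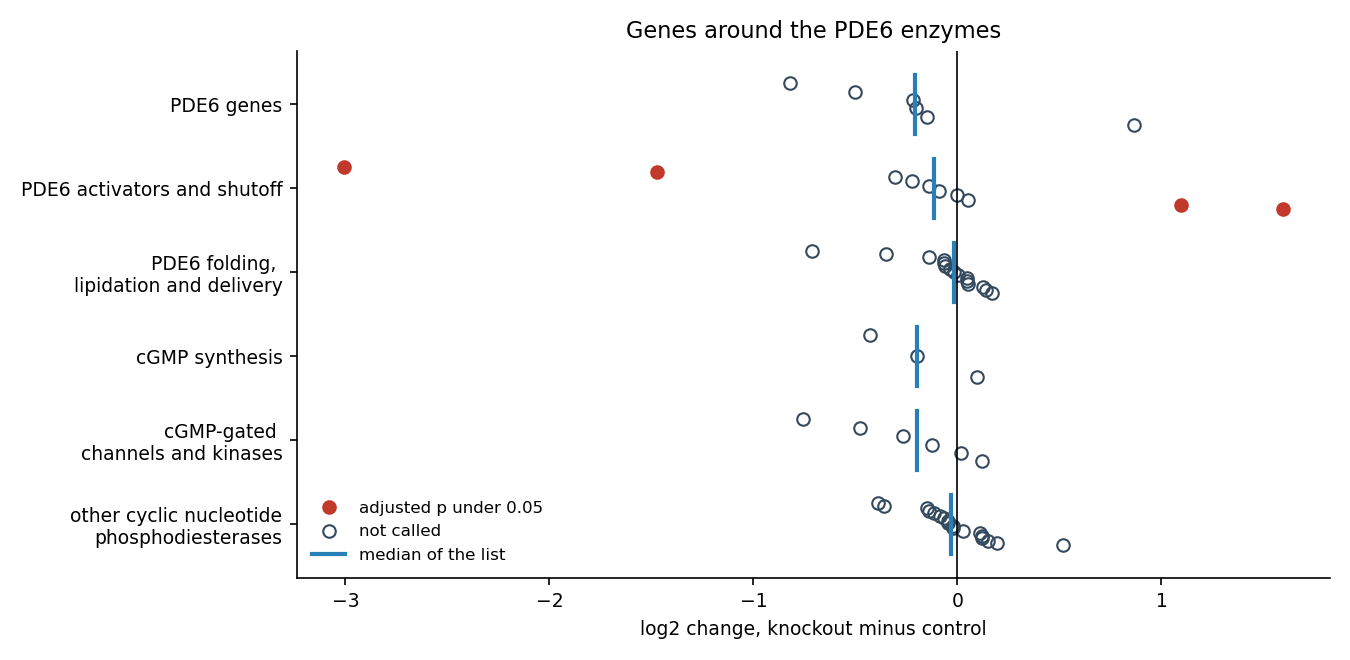
Log2 change, knockout minus control, of the PDE6 genes and of 5 lists of genes around them, with 1 circle per gene, filled where the adjusted p was under 0.05, and a blue line at the median of each list. Filled circles occur in the activation and shutoff list alone (Gnat1, Gnb1, Gnat2 and Gnb3), and the lists of folding genes and of other phosphodiesterases centre at −0.02 and −0.03.

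The genes with the profile nearest to Pde6b were found by the Euclidean distance between log2 levels over the 4 arrays, after each gene's mean was subtracted. They were Cngb1 (distance 0.105), Rpgrip1 (0.116) and Zscan29, a zinc finger gene (0.119), with log2 changes of −0.76, −0.71 and −0.80. Cngb1 and Rpgrip1 are photoreceptor genes that also stand in the lists above. Nearest to Pde6c were Pdpn, which encodes the membrane glycoprotein podoplanin (0.0840), Clu, which encodes clusterin and is among the Müller glia markers (0.0915), and Cd47, a surface protein that restrains phagocytes (0.0921). Their log2 changes were 0.89, 0.89 and 0.88, and Cd47 passed the threshold (adjusted p = 0.0405), though in no fit that left out a pool (lowest adjusted p 0.264). The distance depends on the size of a change, so the similar log2 changes follow from how these genes were picked. Cone genes with larger or smaller changes are set apart by size alone, so the distance cannot show whether Pde6c went with them. With 4 arrays this likeness is a description of these pools.

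**Figure D5:**
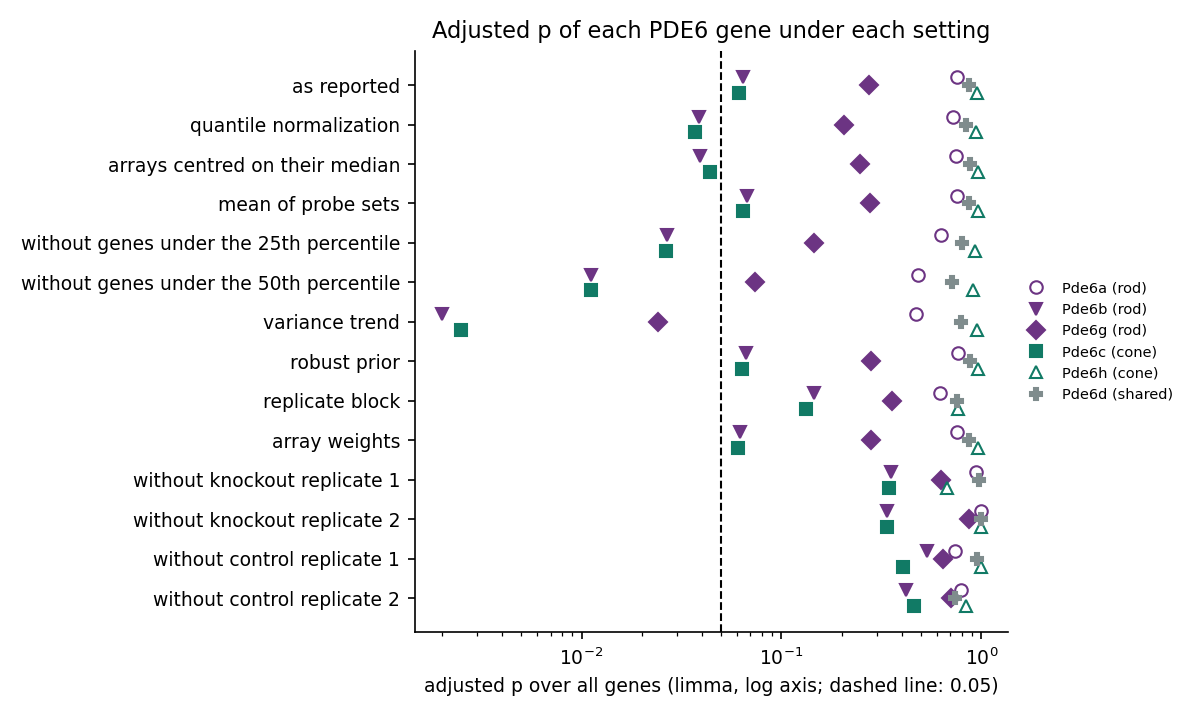
Adjusted p over all genes (horizontal log axis, dashed line at 0.05) of each PDE6 gene in the reported fit and under 13 alternative settings, with 1 symbol per gene. Pde6b and Pde6c lie to the right of the line at 0.0644 and 0.0616 as reported and cross it under 5 of the settings, and Pde6a, Pde6h and Pde6d stay to its right under all 13.

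Whether Pde6b and Pde6c were called differed between settings. Their adjusted p was under 0.05 in 5 of 13 alternative settings each and over it in the other 8, ranging from 0.00200 to 0.536 for Pde6b and from 0.00250 to 0.460 for Pde6c. Their log2 changes stayed between −0.87 and −0.78 and between 0.80 and 0.94. Pde6g was called under 1 setting, a variance trend (adjusted p = 0.0242), and Pde6a, Pde6h and Pde6d under none.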

How the data were processed

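The authors deposited one log2 value for each of 21897 probe sets on 4 arrays; the log2 scale was taken from the range of the values. Per the submitters' processing notes, affy and limma were used, with no role stated, and how background was corrected and arrays normalized was not stated in these sources. Values were kept as deposited. The platform annotation gave the gene symbols; probe sets with 1 symbol (20877) were kept, and the one with the highest mean stood for each of 19421 genes. No detection values were used, so low levels cannot be told from background, and the number of arrays limits the precision. The limma package (version 3.58.1, R 4.3.3; linear model and empirical Bayes, genotype only, two-sided, Benjamini-Hochberg over all genes) compared 2 knockout with 2 control pools. Pools hold different animals, so p-values measure the spread between pools. The steps were tested on simulated data. Pair differences used exact permutation tests in SciPy 1.17.1. The named genes were the 6 PDE6 genes, Nrl, Gnat1, Gnat2, Aipl1, up to 4 called genes of each list or else the 2 with the smallest p, and the 3 nearest profiles to Pde6b and Pde6c. The genes and lists were chosen with earlier results of these data known. Some listed genes were not analysed here.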

Additional observations from a re-analysis of the deposited data

How the results depend on the processing

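Of 13 alternatives for each PDE6 gene, the direction was kept in all for Pde6a, Pde6b, Pde6g, Pde6c and Pde6d. Pde6h turned from −0.20 to 0.25 without knockout replicate 2, and its values without 1 pool ran from −0.66 to 0.25; Pde6h minus Pde6g ran from −0.10 to 0.70 without 1 pool. Pde6b and Pde6c passed the adjusted p of 0.05 after quantile normalization (−0.85, adjusted p = 0.0389, and 0.88, 0.0371), with arrays centred on their median (−0.84, 0.0390, and 0.85, 0.0439), when the lowest 25% of genes by mean signal were left out (−0.82, 0.0269, and 0.87, 0.0264) or the lowest 50% (−0.82, 0.0111, and 0.87, 0.0111), and with a variance trend (−0.82, 0.00200, and 0.87, 0.00250), under which Pde6g also passed (−0.50, 0.0242). The 2 filters test fewer genes, but the unadjusted limma p of Pde6b also fell under them. It went from 0.000146 to 7.94e-05 without the lowest 25% and 4.50e-05 without the lowest 50%. The SE of Pde6b was 0.0995 as reported, 0.0924 and 0.0849 under the 2 filters and 0.0680 with the variance trend, with the same log2 change. The filters and the trend leave the values of the gene as they are and alter the variance that limma takes from other genes. For quantile normalization and centring the cause was not tested.

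Against 39 genes called (27 higher, 12 lower), there were 89 (58 and 31) with the lowest 50% of genes left out and 128 (81 and 47) with the variance trend. Without 1 pool there were 0 to 11 (0 to 5 higher, 0 to 6 lower). With the replicate number as a block there were 8 calls (5 higher, 3 lower) and no PDE6 gene among them (adjusted p = 0.145 for Pde6b, 0.132 for Pde6c and 0.357 for Pde6g), and of Gnat1, Gnb1, Gnat2, Gnb3 and Cd47 it kept Gnat1. The labels do not say that equal numbers pair the pools; the deviations of same-numbered pools from their group means correlated across genes at r = 0.239. Each PDE6 gene has 1 probe set, so no other probe set could be tried. Centring moved the median of all genes from 0.00 to −0.02. Signal over background was not available for any gene.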
